A study of Mus musculus with 6 samples.

Results

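Ccl3 and Ccl4, which encode the chemokines MIP-1 alpha and MIP-1 beta, were followed through all 6 libraries of a Drop-seq study of mouse brain myeloid cells. The pair makes up 2 of the 19361 genes in the deposited tables. Both were chosen by name, with their levels, their uneven spread over cells and their link to immediate-early genes in these same libraries already known, so those measures are given below as descriptions with no test. Drop-seq isolates single cells in droplets, where each captured messenger RNA receives a barcode of its cell and an identifier of its own (a UMI), so that 1 UMI stands for 1 molecule read at its 3′ end. The Cx3cr1-null group (Cx3cr1-/-) and the Cx3cr1-heterozygous group (Cx3cr1+/-) had 1 library each, made from 2 pooled brains with metastases. The metastasis group had 2 libraries from mice with brain metastases and no Cx3cr1 change in their labels, and the naive group 2 libraries from wild-type mice without metastases, each from 1 brain. All mice were C57BL/6 females of 2 to 3 months. Metastases were started by injecting E0771 cells, a mouse mammary carcinoma line, into the heart 2 to 3 weeks before, so the null and the heterozygous brains carried them as well. Every suspension had been digested with papain, spun through Percoll and enriched on magnetic columns for Cd11b, a surface protein of myeloid and NK cells.

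Ccl3 and Ccl4 are small secreted proteins that draw in monocytes, T cells and NK cells. Ccr1 is a receptor of Ccl3. Macrophages and microglia, the resident macrophages of the brain, transcribe both genes quickly after a stimulus. NF-kB is a main driver of that transcription, and the resulting messages are short-lived because proteins such as Zfp36 bind AU-rich elements in their tails. Immediate-early genes such as Fos, Jun and Egr1 are transcribed within minutes of a stimulus without new protein synthesis.

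On GRCm38 (mm10), GENCODE places Ccl3 (ENSMUSG00000000982.5) on the minus strand at chr11:83647844-83649355 and Ccl4 (ENSMUSG00000018930.3) on the plus strand at chr11:83662584-83664683. Their start sites face each other across 13228 bases that hold no other protein-coding gene, and Ccl5, Ccl9 and Ccl6 lie on the side of Ccl3. Each gene has 3 exons, 2 introns and a coding sequence of 92 codons, with an annotated transcript of 766 bases for Ccl3 and 660 for Ccl4. The coding sequences were identical at 191 of 273 aligned bases (70.0%), and the longest run that the whole transcripts shared without a mismatch was 9 bases, ctttgctcc, in the coding part. RefSeq draws the Ccl4 gene longer, and its range overlaps that of Ccl3 by 755 bases on the opposite strand. Whether the authors' counting used strand is not given in the sources used here, so a read in that overlap cannot be assigned with certainty.

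AU-rich pentamers (ATTTA) in the 3′ untranslated regions are shown because the cell-to-cell results below include Zfp36, which binds AU-rich elements. Ccl3 has 5 of them in 409 bases. Of the 15220 genes with a 3′ untranslated region at least that long, 1.12% have that many or more in its last 409 bases. Ccl4 has 2 in 302 bases, and 16.4% of 16542 genes have at least that many in a window of the same length. Capitals mark the pentamers, and site 2 of Ccl3 directly follows site 1 and is shown with it. Of Ccl4, site 2 is shown.
Ccl3 site 1: gaaattttATTTAATTTAatc
Ccl3 site 3: ttaatactATTTAattttgta
Ccl3 site 4: attttgtaATTTAttttattg
Ccl3 site 5: ttgtgactATTTAttctgaaa
Ccl4 site 2: tttctattATTTAtgttttag

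The 250 bases before the RefSeq start of Ccl3 (GRCm38.p6, chr11:83649379-83649628, minus strand, 5′ to 3′) are given because the pair went together with induced genes from cell to cell. They were searched on both strands for 4 motifs, and capitals mark the matches, which do not overlap.
Ccl3 promoter: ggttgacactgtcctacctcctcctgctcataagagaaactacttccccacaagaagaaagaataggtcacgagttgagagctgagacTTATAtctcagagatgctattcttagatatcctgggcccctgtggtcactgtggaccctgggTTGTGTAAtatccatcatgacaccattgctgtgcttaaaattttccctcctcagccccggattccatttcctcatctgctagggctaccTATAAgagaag
A TATA match (TATAA) began 11 bases before the RefSeq start and 34 bases before the GENCODE start, with a second one 162 bases before the RefSeq start on the other strand. A C/EBP match (TTNNGNAA) began 100 bases before it. The letters of NF-kB (GGG, any 5 bases, CC) and AP-1 (TGANTCA) did not occur in this window. Only these letters were searched, so sites with other letters or outside the window would be missed. Of all 32851 promoter windows of this length, 22.8% held the TATA letters, 36.8% those of C/EBP, 45.8% those of NF-kB and 6.75% those of AP-1.

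The libraries differed widely in depth and in the cells they held. Total UMIs ran between 491621 and 2667099 over 1000 deposited barcodes each, and 1978 of the 6000 barcodes were kept as cells. Of these, 1041 fell into 4 of 12 clusters that were called microglia-like from marker genes, after Ccl3 and Ccl4 had been taken out of the clustering. Microglia-like cells numbered 125 in null, 188 in heterozygous, 160 in metastasis 1, 73 in metastasis 2, 371 in naive 1 and 124 in naive 2. Different clusters supplied them: a Ttr-led cluster held most in null, heterozygous and naive 2, an Egr1-led and a Cx3cr1-led cluster most in metastasis 2 and naive 1, and a Gpr84-led cluster 158 of the 160 cells of metastasis 1. That last cluster was named only against the rest of its library, and Ccl3 and Ccl4 themselves were among its leading genes. The summed level of 11 microglia markers in microglia-like cells was 6150 CPM (UMIs scaled to 1000000 UMIs) in metastasis 1, against 16100 to 21600 CPM in the other 5 libraries, with none of the 11 at 0 in any. Marker sums of 5 other cell types were highest in these cells of metastasis 1, with 502 CPM for neutrophils (274 to 391 CPM in the other 5 libraries), 738 CPM for monocytes and monocyte-derived macrophages (24.1 to 303 CPM), 418 CPM for border-associated macrophages (96.4 to 282 CPM), 469 CPM for carcinoma (at most 50.8 CPM) and 129 CPM for NK cells (16.4 to 44.3 CPM), while those of dendritic, T, B, endothelial, mural, astrocyte, oligodendrocyte, neuron and ependymal cells were not. Their part in the levels below was not tested. Cx3cr1, the gene that the null mice lack, stood at 55.3 CPM in null and 1287 CPM in heterozygous microglia-like cells, and at 978 and 4295 CPM in metastasis 1 and 2, and 4417 and 2233 CPM in naive 1 and 2. For the 4 metastasis and naive libraries, table names and sample labels contradict each other on the group. The labels were followed, and 54 of the 55 cells of the one carcinoma-like cluster were in the library labelled metastasis 1. No cell of metastasis 2 was carcinoma-like, and the carcinoma markers of its microglia-like cells, 6 of 6, were at 0, against summed levels of 50.8 CPM in naive 1 and 22.0 CPM in naive 2. Each direction between metastasis and naive given below therefore rests on the labels, and a ratio turns round if the table names are right for the libraries in it. Metastasis 1 and naive 1 were sequenced on a HiSeq 2500 and the other libraries on a NextSeq 500.

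Ccl3 and Ccl4 were among the most abundant messages of microglia-like cells in every library. Ccl3 measured 2149 CPM in null, 4829 CPM in heterozygous, 7383 and 2950 CPM in metastasis 1 and 2, and 3390 and 4331 CPM in naive 1 and 2. Metastasis 1 was highest and null lowest, a 3.44-fold range, and none of the exact 95% counting intervals of these 6 levels overlap. Ccl4 measured 3133 CPM in null, 5739 CPM in heterozygous, 11740 and 4874 CPM in metastasis 1 and 2, and 6885 and 5623 CPM in naive 1 and 2. Its range was 3.75-fold, with the same libraries at the ends, and the intervals of heterozygous (5575 to 5906 CPM) and naive 2 (5396 to 5858 CPM) overlap while the other neighbours in the order do not. Among all genes, leaving out mitochondrial and ribosomal protein genes, Ccl4 ranked between place 1, in metastasis 1, and place 22, in null, and Ccl3 between place 5 and place 33 in the same libraries. Counting intervals cover sampling of UMIs only, and the spread between the 2 libraries of a group was far wider than they are.

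**Figure D1:**
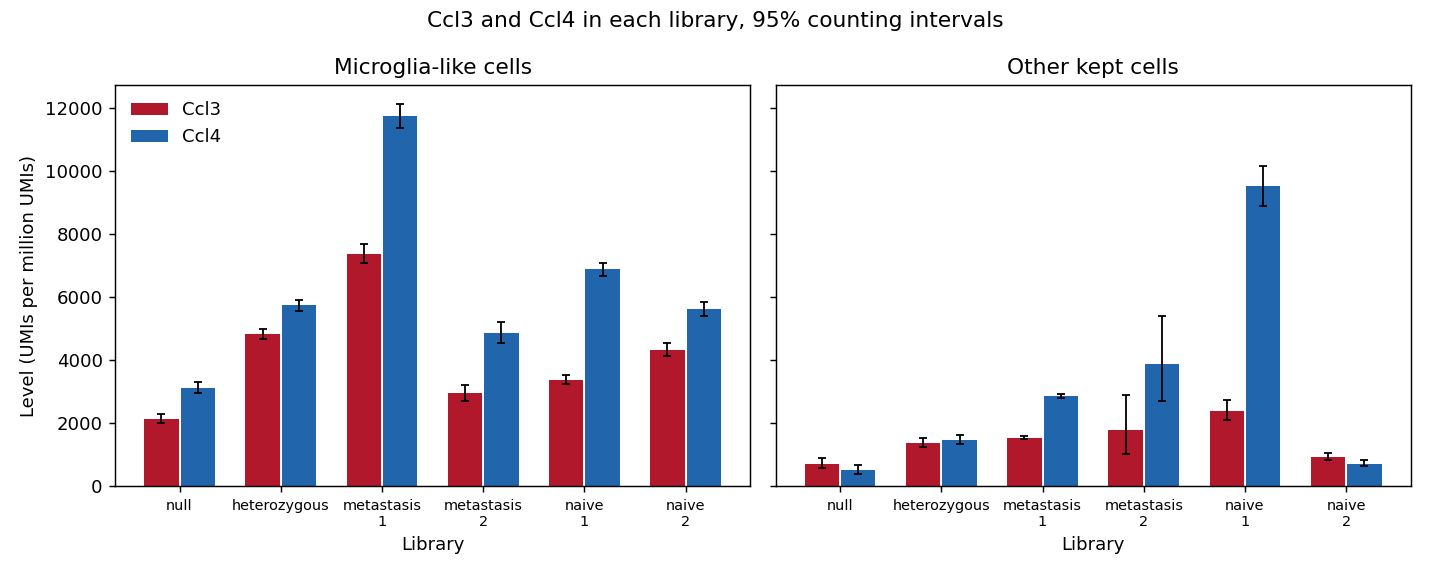
Level of Ccl3 and Ccl4 (CPM, bars, with exact 95% Poisson intervals) in microglia-like cells, left, and in all other kept cells, right, for each library. Metastasis 1 stands highest among microglia-like cells with Ccl4 at 11740 CPM, and naive 1 is the library where Ccl4 of the other cells, at 9523 CPM, exceeds that of its microglia-like cells.

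Among kept cells, most UMIs of both genes lay in microglia-like cells, except in metastasis 1. Kept cells themselves held 43.0% of all deposited Ccl3 UMIs in null, 59.3% in heterozygous, 92.6% in metastasis 1, 50.4% in metastasis 2, 75.1% in naive 1 and 54.0% in naive 2. Of the Ccl3 UMIs of kept cells, 91.6% in null, 90.1% in heterozygous, 41.0% in metastasis 1, 96.8% in metastasis 2, 91.2% in naive 1 and 86.5% in naive 2 came from microglia-like cells. For Ccl4 the shares were 95.6% in null, 91.0% in heterozygous, 37.4% in metastasis 1, 95.8% in metastasis 2, 84.2% in naive 1 and 91.5% in naive 2. Metastasis 1 stood apart, with 160 of its 940 kept cells called microglia-like.

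Cells of other kinds mostly carried lower levels. Carcinoma-like cells of metastasis 1, which should lack both genes, held 207 CPM of Ccl3 and 316 CPM of Ccl4, a level read here as background. Endothelial-like cells held 245 CPM of Ccl3 in null (4 cells), 1029 CPM in heterozygous (13 cells) and 255 CPM in naive 2 (13 cells). Their heterozygous level was the highest of the 3, as was that of the microglia-like cells of that library among the same 3 libraries. The part of background in the endothelial-like levels was not tested. An unnamed Spp1-led cluster of 190 cells in metastasis 1 reached 2813 CPM of Ccl3 and 5306 CPM of Ccl4, and an unnamed cluster of 454 cells led by the mitochondrial ribosomal RNA mt-Rnr1 reached 1676 CPM of Ccl3 and 3018 CPM of Ccl4. NK cell-like cells, known producers of both chemokines, held 2420 CPM of Ccl3 and 4738 CPM of Ccl4 in metastasis 1 (19 cells), but 1 cell carried 57 of their 94 Ccl3 UMIs and 93 of their 184 Ccl4 UMIs, and the median cell stood at 673.9 CPM of Ccl3 and 2083 CPM of Ccl4. The 16 border-associated macrophage-like cells of naive 1 held 2496 CPM of Ccl3 and 7470 CPM of Ccl4, and the 4 Spp1-led cells there 17980 CPM of Ccl4, with 103 of their 180 Ccl4 UMIs in 1 cell. Of the 210 Ccl4 UMIs in the 4 Cd74-led cells of naive 1, 178 lay in 1 cell. Counting intervals for Ccl3 in the endothelial-like cells of null and naive 2 overlap that of the carcinoma-like cells. Those of the other groups named lie above it in CPM. The same number of UMIs gives a higher CPM in a shallower cell. Median depth was 1450 UMIs in the mt-Rnr1-led cells and 8703 in the carcinoma-like cells of metastasis 1. The 454 mt-Rnr1-led cells held 1177 Ccl3 UMIs and the 54 carcinoma-like cells 129, which is close per cell. The part of background in the mt-Rnr1-led level was not tested.

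Nearly every microglia-like cell held at least 1 UMI of either gene. The share was 95.2% in null, 97.3% in heterozygous, 100% in metastasis 1 (160 of 160 cells), 80.8% in metastasis 2, 98.1% in naive 1 and 98.4% in naive 2. At these depths the share says little, since 90.7% of the carcinoma-like cells of metastasis 1 also held a UMI, at a median of 8703 UMIs per cell against 1714 in the microglia-like cells of that library. After each cell had been thinned to 800 UMIs, with shallower cells left out, the share was 77.3% in null, 88.9% in heterozygous, 100% in metastasis 1, 74% in metastasis 2, 94.5% in naive 1 and 90.6% in naive 2. Carcinoma-like cells of metastasis 1 gave 29.6% after thinning. Thinning removes most UMIs of such deep cells, background included, so their share is not a background matched to the shallower microglia-like cells. Thinning left out 6 cells in null, 8 in heterozygous, 0 in metastasis 1, 23 in metastasis 2, 79 in naive 1 and 7 in naive 2. Thinned endothelial-like cells gave higher shares than the carcinoma-like cells. These were 75.0% in null (3 of 4 cells), 53.8% in heterozygous (7 of 13) and 45.5% in naive 2 (5 of 11). In null the microglia-like share thus stood near that of the few endothelial-like cells, and in the other libraries with such a share it stood above it.

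Detection of both genes in the same cell also varied between libraries. Both genes were found in 41.2% of thinned cells in null, 66.7% in heterozygous, 96.2% in metastasis 1, 40.0% in metastasis 2, 61.3% in naive 1 and 64.1% in naive 2. Cells with Ccl4 alone outnumbered cells with Ccl3 alone in naive 1 (71 against 25) and metastasis 2 (12 against 7), while the numbers were close in null (20 against 23), heterozygous (23 against 21) and naive 2 (11 against 12).

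A small part of the cells held much of the message. The top 10% of microglia-like cells, ordered by their summed Ccl3 and Ccl4 UMIs, held 52.5% of those UMIs in null, 45.7% in heterozygous, 24.4% in metastasis 1, 65.6% in metastasis 2, 50% in naive 1 and 44.8% in naive 2. The same cells held 24.9% of all UMIs in null, 22.1% in heterozygous, 14.9% in metastasis 1, 27.2% in metastasis 2, 21.5% in naive 1 and 22.2% in naive 2; ordering by raw UMIs favours deep cells. Genes with a UMI sum within 2-fold of the pair's were less concentrated in most cases: 1 of 26 such genes exceeded the pair in null, 0 of 11 in heterozygous, 0 of 19 in metastasis 2, 0 of 14 in naive 1 and 0 of 13 in naive 2, but 3 of 3 in metastasis 1. With cells thinned to 800 UMIs the top 10% held 47.1% in null, 36.6% in heterozygous, 22.4% in metastasis 1, 46.5% in metastasis 2, 37.6% in naive 1 and 33.9% in naive 2. Metastasis 1 was the even library on both measures.

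In some libraries 1 cell held a large share. In null 1 cell carried 542 UMIs of the pair, 22.7% of the library's total, and it was also the deepest microglia-like cell with 34456 UMIs. The top cell held 16.3% in metastasis 2, 8.34% in naive 2, 3.60% in heterozygous, 3.46% in naive 1 and 2.64% in metastasis 1. Per-cell medians are less exposed to such cells. For Ccl3 the median cell stood at 1006 CPM in null, 2709 CPM in heterozygous, 6887 and 717.9 CPM in metastasis 1 and 2, and 1613 and 2895 CPM in naive 1 and 2. For Ccl4 it stood at 1156 CPM in null, 2455 CPM in heterozygous, 11190 and 1323 CPM in metastasis 1 and 2, and 3319 and 2871 CPM in naive 1 and 2. In metastasis 1 the median cell was thus close to the library's level, and in the other 5 libraries it was well below it.

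**Figure D2:**
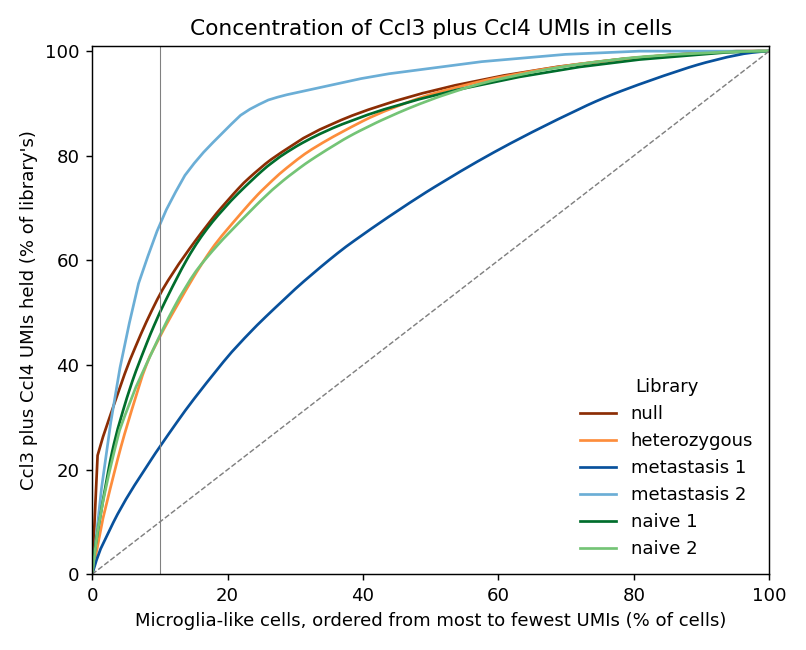
Share of the summed Ccl3 and Ccl4 UMIs (vertical axis, % of each library's) held by microglia-like cells taken from the richest down (horizontal axis, % of cells), 1 curve per library, with even spread as the dashed diagonal and the top 10% of cells at the grey line. At that line metastasis 2 reaches 65.6% and metastasis 1 24.4%, and the null curve starts with a jump from 1 cell that holds 22.7%.

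Ccl4 outnumbered Ccl3 in microglia-like cells of every library, by UMI counts that stand for single molecules and need no correction for length, although capture of the 2 tails was not compared. Ccl4 made up 59.3% of the summed UMIs in null (interval 57.3 to 61.3%), 54.3% in heterozygous (53.2 to 55.4%), 61.4% in metastasis 1 (60.1 to 62.6%), 62.3% in metastasis 2 (59.6 to 64.9%), 67.0% in naive 1 (65.9 to 68.1%) and 56.5% in naive 2 (55.0 to 58.0%). The metastasis libraries lay next to each other, whereas the naive libraries lay on both sides of them. Barcodes that were not kept gave nearly the same order, with Ccl4 shares of 55.2% in null, 53.8% in heterozygous, 63.7% in metastasis 1, 60.7% in metastasis 2, 67.1% in naive 1 and 52.7% in naive 2. Other kept cells spread wider, with Ccl4 shares of 42.2% in null, 51.7% in heterozygous, 64.9% in metastasis 1, 68.6% in metastasis 2, 79.9% in naive 1 and 43.8% in naive 2. Ccl3 was thus the more abundant of the pair in other kept cells of naive 2, and in those of null within an interval that reaches 50.4%.

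The balance differed between cell groups of a library. In naive 1 the border-associated macrophage-like cells had 75.0% Ccl4 (71.2 to 78.5%), above the 67.0% of microglia-like cells. In naive 2 the Ttr-led microglia-like cluster had 59.8% Ccl4 (57.9 to 61.6%) and the Egr1-led one 50% (47.1 to 52.8%). In null the same clusters had 62.0% (59.7 to 64.2%) and 46.5% (41.8 to 51.4%). In heterozygous they had 54.6% (53.5 to 55.7%) and 50.5% (45.3 to 55.7%), intervals that overlap.

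Single cells differed in the balance by more than UMI counting gives. Among microglia-like cells with at least 20 UMIs of the pair, the Ccl4 share had an SD of 19.3 percentage points in null (32 cells), 20.3 in heterozygous (92), 11.3 in metastasis 1 (122), 16.0 in metastasis 2 (16), 19.9 in naive 1 (96) and 19.0 in naive 2 (53). Counting alone gives between 7.14 and 8.09 percentage points for the same cells. In naive 1 the 10th percentile of the share was 38.2% and the 90th 89.6%, and in metastasis 1 they were 46.5% and 76.2%. Every library thus held cells richer in Ccl3 as well as cells richer in Ccl4, with the narrowest spread in metastasis 1.

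Even so, the genes went together from cell to cell over all microglia-like cells of a library. On a log scale, ln(1 + UMIs per 10000), Pearson's r between Ccl3 and Ccl4 over microglia-like cells was 0.40 in null, 0.65 in heterozygous, 0.55 in metastasis 1, 0.41 in metastasis 2, 0.34 in naive 1 and 0.50 in naive 2. After thinning to 800 UMIs it lay between 0.37 and 0.53. The link changed with the cluster. Within the Cx3cr1-led cluster r was near 0, with 0.13 in naive 1 (207 cells) and -0.02 in metastasis 2 (38 cells). Within the Egr1-led cluster it was 0.49 in naive 1 (158 cells) and 0.65 in metastasis 2 (33 cells). The Cx3cr1-led cells were shallow, with a median depth of 858 UMIs in naive 1 and 788 in metastasis 2, and the part of depth was not tested. The points of a library share its depth and its preparation, and no p is given.

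**Figure D3:**
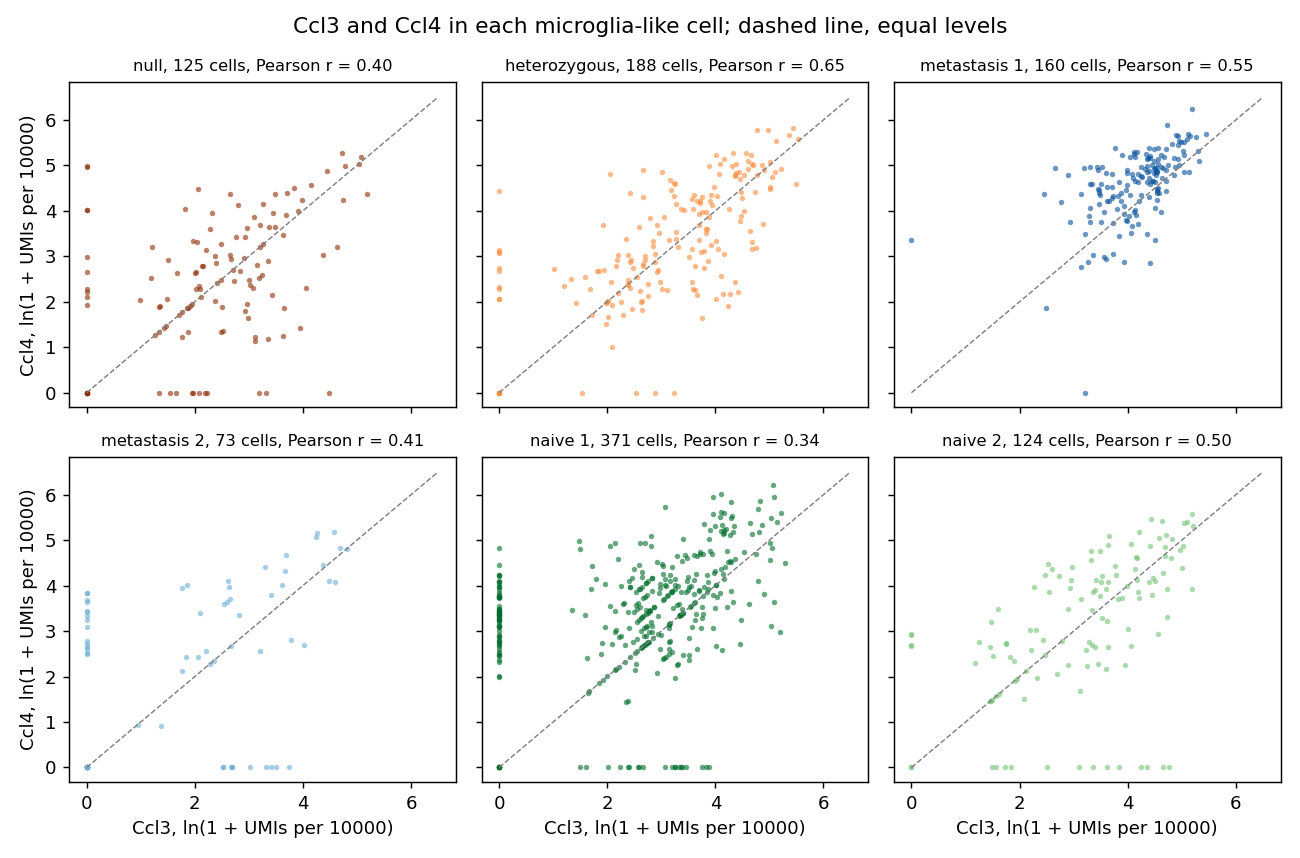
Ccl3 (horizontal) against Ccl4 (vertical), both as ln(1 + UMIs per 10000), in each microglia-like cell (points), 1 panel per library, with equal levels along the dashed line. Cells of metastasis 1 gather at high levels of both genes, whereas the other libraries spread down to cells without a UMI of one gene, and r runs between 0.34 in naive 1 and 0.65 in heterozygous.

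The link of the pair to immediate-early genes was weak to moderate, and near 0 in null. Over microglia-like cells, r between the summed pair and the sum of 22 immediate-early genes was -0.01 in null (125 cells), 0.22 in heterozygous (188), 0.23 in metastasis 1 (160), 0.47 in metastasis 2 (73), 0.31 in naive 1 (371) and 0.29 in naive 2 (124). Thinned to 800 UMIs, it was 0.07 in null, 0.25 in heterozygous, 0.18 in metastasis 1, 0.35 in metastasis 2, 0.29 in naive 1 and 0.30 in naive 2. Depth moved with the pair in metastasis 2, where r with UMIs per cell was 0.38, and lay between -0.09 and 0.22 in the other libraries; its part in the link was not tested beyond the thinning. The link also changed with the cluster: in naive 1 it was -0.13 within the Egr1-led cluster (158 cells) and 0.28 within the Cx3cr1-led cluster (207 cells). In metastasis 2 it was 0.22 within the Egr1-led cluster (33 cells) and 0.41 within the Cx3cr1-led cluster (38 cells). Within the Egr1-led cluster it was 0.08 in null (30 cells) and 0.08 in naive 2 (40 cells). Egr1 is itself on the immediate-early list, and the part of the clustering in these values was not tested. The levels of the pair differed between these clusters as well, with 4096 CPM of Ccl3 in the Egr1-led and 1900 CPM in the Cx3cr1-led cells of naive 1, and 8165 CPM and 3717 CPM of Ccl4. In metastasis 2 the Egr1-led cells (33) held 3155 CPM of Ccl3 and the Cx3cr1-led cells (38) 806.3 CPM. Null went the other way for Ccl4, with 3156 CPM in its 30 Egr1-led and 4955 CPM in its 14 Cx3cr1-led cells.

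NF-kB genes also went with the pair. Against the sum of 20 NF-kB feedback and target genes, r was 0.31 in null, 0.31 in heterozygous, 0.25 in metastasis 1, 0.35 in metastasis 2, 0.39 in naive 1 and 0.27 in naive 2. Thinned to 800 UMIs, it was 0.18 in null, 0.34 in heterozygous, 0.15 in metastasis 1, 0.38 in metastasis 2, 0.38 in naive 1 and 0.27 in naive 2. The sum of 10 inflammatory cytokines gave between 0.26 and 0.42 unthinned and between 0.07 and 0.22 thinned. The 4 mRNA decay factors of the list (Zfp36, Zfp36l1, Zfp36l2 and Zc3h12a) gave between -0.06, in null, and 0.28, in naive 2. Lower values came from other chemokines, between -0.02 and 0.14, and receptors and chemokine binders, between -0.09 and 0.24. Heat shock genes gave between -0.22 and 0.30 and cytosolic ribosomal protein genes between -0.24 and 0.31, with 3 of 6 libraries above 0 in each. Homeostatic microglia genes gave values below 0 in 5 libraries, down to -0.33 in metastasis 2, and 0.45 in metastasis 1. The mitochondrial percent of a cell gave between -0.27 and -0.06. Papain digestion was shared by all libraries, and the part of cell isolation in these links was not tested.

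**Figure D4:**
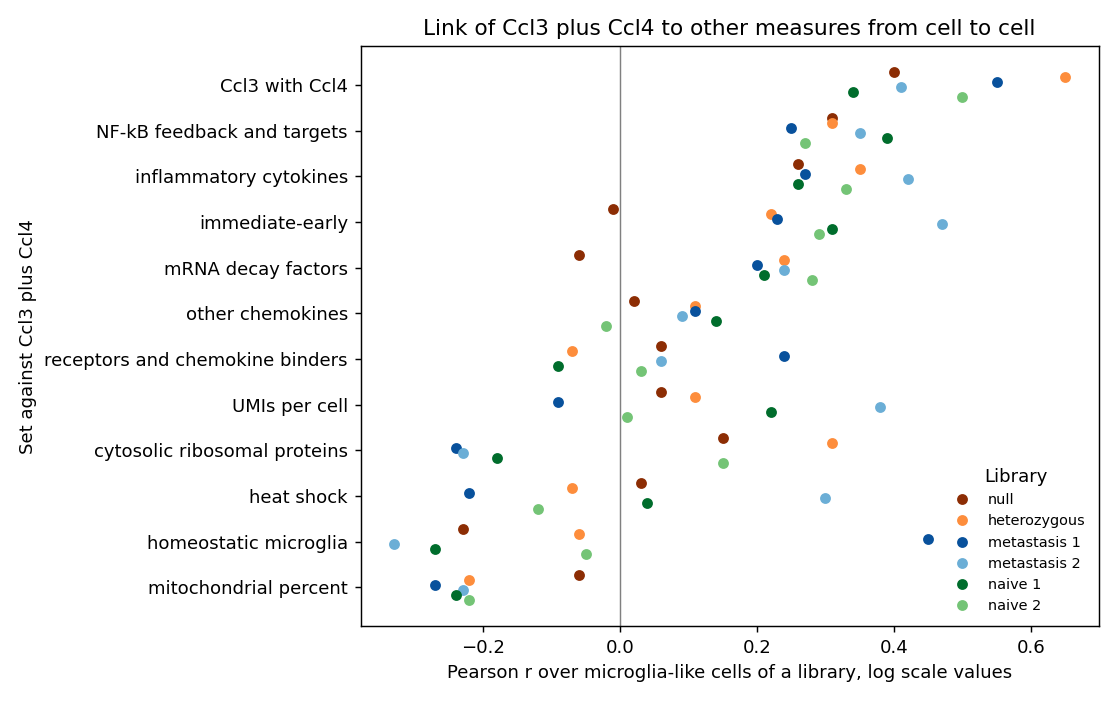
Pearson's r (horizontal axis) over the microglia-like cells of each library (1 point per library) between summed Ccl3 and Ccl4 and the measures named on the vertical axis, most of them summed gene lists. All 6 points of the NF-kB list lie between 0.25 and 0.39, the null point of the immediate-early list lies at -0.01, and the metastasis 1 point of the homeostatic list lies alone at 0.45.

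Genes most like the pair were named by the mean of the 6 within-library r, among 1931 genes with a UMI in at least 10% of microglia-like cells of every library. Over those genes the median mean r was 0.02 and the 95th percentile 0.10. Atf3, an immediate-early transcription factor, came first with a mean r of 0.31 and a range over the libraries of 0.21 to 0.41. Tnf, the cytokine gene whose message carries AU-rich elements as well, followed with 0.30 (0.24 to 0.38), and Id2, an inhibitor of helix-loop-helix transcription factors, with 0.27 (0.17 to 0.36). Next came Cd83 (0.24), a surface protein of activated myeloid cells, Il1a (0.22), the cytokine interleukin-1 alpha, and Ccrl2 (0.22), a chemerin-binding receptor. Ppp1r15a (0.21), a phosphatase subunit of the stress response, Egr1 (0.21), an immediate-early transcription factor, Zfp36 (0.20), the AU-rich element binding protein, and Tlr7 (0.20), an RNA receptor of endosomes, completed the first 10. All of them but Zfp36 were positive in 6 of 6 libraries. Thinned to 800 UMIs, their mean r lay lower, 0.22 for Atf3 and 0.19 for Tnf.

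Of 20 immediate-early genes that could be ranked, 13 lay above the 95th percentile, where 5.02% of all ranked genes lie, and so did 8 of 12 NF-kB genes. The ranked genes were not matched to these lists for abundance. The pair was also chosen with its link to immediate-early genes known, so the counts are descriptions only. Jun had a mean r of 0.08 and Fos 0.14, with Fos between -0.02 and 0.40 over the libraries, against 0.31 for Atf3. Among other chemokines Ccl12 had 0.14, Ccl2 0.06 and Cxcl2 0.02. At the bottom stood mt-Rnr2, a mitochondrial ribosomal RNA, with a mean r of -0.18 and no library above 0. Above it were B230219D22Rik (-0.13), Clec4a3, a C-type lectin (-0.10), Man2b1, a lysosomal mannosidase (-0.10), and Hsp90b1, a chaperone of the endoplasmic reticulum (-0.10).

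The design sets metastasis against naive brains, with 2 libraries each. In microglia-like cells Ccl3 averaged 5166 ± 3130 CPM in the metastasis libraries and 3860 ± 665 CPM in the naive ones (SD, n = 2 each). Ccl4 averaged 8307 ± 4850 CPM in the metastasis libraries and 6254 ± 892 CPM in the naive ones. Groups overlapped for both genes, with metastasis 1 above and metastasis 2 below both naive libraries. By edgeR's quasi-likelihood test the log2 change was 0.31 for Ccl3 (SE 0.62, adjusted p = 0.983) and 0.28 for Ccl4 (SE 0.65, adjusted p = 0.983). The test called 0 of 5706 genes (0%), 192 had an unadjusted p under 0.05, and DESeq2 called 1, Ttr, a choroid plexus gene named here after its values were seen. The smallest p that an exact permutation test can give with 2 libraries against 2 is 0.333, two-sided, and it gave 1 for either gene.

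By the labels, the libraries on each sequencer went opposite ways. On the HiSeq 2500 the log2 ratio of metastasis 1 over naive 1 was 1.12 for Ccl3 and 0.77 for Ccl4. On the NextSeq 500 the ratio of metastasis 2 over naive 2 was -0.55 for Ccl3 and -0.21 for Ccl4. Over all kept cells edgeR gave -0.34 for Ccl3 and -0.40 for Ccl4, the opposite direction from microglia-like cells, and leaving out metastasis 1 gave -0.43 for each gene.

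Gene lists described in the same comparison also had no member past the threshold. Immediate-early genes were lower in metastasis for 14 of 21 tested (median log2 -0.29), with Jun at -0.62 and Fos at -0.65. Egr1 and Atf3, also abundant, did not share a clear lower level. Egr1 measured 4980 and 8320 CPM in metastasis 1 and 2, and 7730 and 3540 CPM in naive 1 and 2. Atf3 measured 6130 and 5740 CPM in metastasis 1 and 2, and 7170 and 4240 CPM in naive 1 and 2. NF-kB genes were higher for 12 of 18 (median 0.34), with Nfkbia, the NF-kB inhibitor, at -0.82 and Nfkbiz at 0.59. Other chemokines were higher for 7 of 9 (median 0.52), with Ccl12 at 0.96 and Cxcl2 at 0.57. All 16 homeostatic microglia genes were lower (median -0.46). Inflammatory cytokines (5 of 7 higher, median 0.04), heat shock genes (4 of 8 higher, median 0.03), receptors and chemokine binders (1 of 4 higher, median -0.45) and mRNA decay factors (1 of 4 higher, median -0.51) complete the lists. The median over all genes tested was 0.01. None of these directions passed the test, and the low microglia marker sum of metastasis 1 moved with them, a part that was not tested.

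The null and the heterozygous group have 1 library each, so their difference has no test and no replicate check. In microglia-like cells Ccl3 measured 2149 CPM in null (971 UMIs) and 4829 CPM in heterozygous (3906 UMIs), a log2 ratio of -1.17 with a counting interval of -1.27 to -1.07. Ccl4 measured 3133 CPM in null (1416 UMIs) and 5739 CPM in heterozygous (4642 UMIs), a log2 ratio of -0.87 (-0.96 to -0.79). The members were thus lower in the null library, with Ccl3 at or below a log2 ratio of -1, as were 137 of 4506 genes with enough UMIs (3.04%), and Ccl4 not. Counted from the lowest ratio, Ccl3 took place 73 and Ccl4 place 209.

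Per-cell medians and clusters showed the same for the larger groups of cells. The median cell held 1006 CPM of Ccl3 in null and 2709 CPM in heterozygous, and 1156 CPM of Ccl4 in null and 2455 CPM in heterozygous. Without the 3 cells richest in each gene, the log2 ratio was -1.44 for Ccl3 and -1.14 for Ccl4. Within the Ttr-led cluster (81 null and 157 heterozygous cells) it was -1.36 for Ccl3 and -0.92 for Ccl4. Within the Egr1-led cluster (30 null and 20 heterozygous cells) it was -0.61 for Ccl3 and -0.84 for Ccl4. The Cx3cr1-led cluster (14 null and 9 heterozygous cells) gave -0.47 for Ccl3, with an interval of -1.10 to 0.16, and 1.30 for Ccl4 (0.62 to 2.05), the opposite direction on 90 UMIs in null and 22 in heterozygous. Barcodes that were not kept were lower in null as well: Ccl3 stood at 1184 CPM in null and 2365 CPM in heterozygous, and Ccl4 at 1461 CPM in null and 2759 CPM in heterozygous. Other kept cells had 719.8 CPM of Ccl3 in null and 1385 CPM in heterozygous, and 525.7 and 1481 CPM of Ccl4. Endothelial-like cells had 245 CPM of Ccl3 in null (4 cells) and 1029 CPM in heterozygous (13 cells). The lower level was thus not confined to microglia-like cells, and the part of background in it was not tested.

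**Figure D5:**
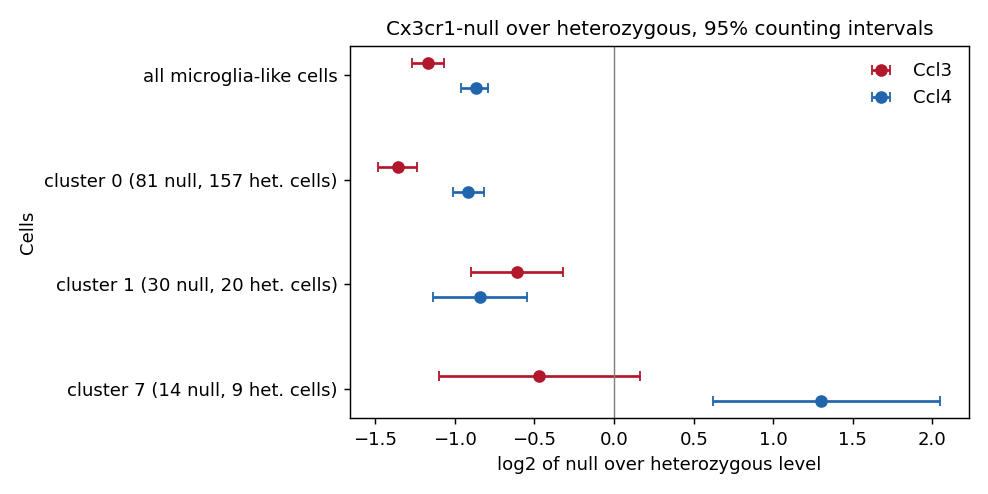
Log2 ratio of the Cx3cr1-null over the heterozygous level (horizontal axis, points with exact 95% counting intervals) of Ccl3 and Ccl4, over all microglia-like cells and within the Ttr-led (cluster 0), the Egr1-led (cluster 1) and the Cx3cr1-led cluster (cluster 7). The points of all cells lie at -1.17 and -0.87, and Ccl4 of the smallest cluster lies above 0 at 1.30.

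Lists of other genes went both ways in this comparison, some mostly lower in null like the pair and others mostly higher. Of 20 immediate-early genes with at least 50 UMIs, 16 were lower in null, 1 of them by a log2 ratio at or below -1. Their median was -0.28, against -0.05 over all genes. Jun stood at -0.20, Fos at -0.17, Egr1 at -0.19 and Atf3 at 0.02. NF-kB genes were lower for 9 of 16 (median -0.06), with Nfkbia at -0.34 and Cd83 at -0.45. Of 8 other chemokines 6 were higher in null (median 0.50): Cxcl10, an interferon-induced chemokine, measured 1060 CPM in null and 111 CPM in heterozygous, Ccl2 611 CPM in null and 70.5 CPM in heterozygous, and Ccl12 1126 CPM in null and 697 CPM in heterozygous. Inflammatory cytokines were lower for 4 of 7 (median -0.14), with Tnf at -0.41 and Csf1 at -1.11. Il1a (604 CPM in null, 514 CPM in heterozygous) and Il1b (292 CPM in null, 244 CPM in heterozygous) were higher in null. Receptors and chemokine binders were lower for 2 of 3 (median -0.06), and Cx3cr1, which the null mice lack, was among the lower ones. The mRNA decay factors were lower for 3 of 4 (median -0.35), with Zfp36 at -0.31. Heat shock genes were higher for 6 of 7 (median 0.61) and homeostatic microglia genes for 13 of 16 (median 0.15), a list that holds Cx3cr1 itself. Ccr1, the receptor of Ccl3, stood at 35.4 CPM in null and 23.5 CPM in heterozygous, too few UMIs for a ratio. With 2 pooled brains behind 1 library of each genotype, differences between mice and between genotypes cannot be told apart.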

How the data were processed

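Drop-seq libraries of Cd11b-enriched brain cells were measured in 6 samples, which were grouped by their labels. The authors deposited raw UMI counts, 1 table of 1000 barcodes per library. Per the submitters' processing notes, STAR, Seurat and the mm10 build were used; of versions, annotation and strand setting nothing is given in the sources used here. Barcodes with at least 400 genes and under 10% mitochondrial UMIs were kept, and the 5% with the highest Scrublet score per library were removed (scanpy 1.11.5). Cells were clustered without Ccl3 and Ccl4 (2000 variable genes, 30 components, 15 neighbours, Leiden resolution 1, igraph 0.11.9). A cluster was called microglia-like where its markers had a median log2 ratio of at least 1 over other cells, or over other cells of its library when 90% of it lay in 1 library. At most 1 barcode was shared between libraries. Table names give the other group than the labels for the metastasis and naive libraries, and the labels were followed.

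Levels (CPM) are UMIs scaled to 1000000 UMIs, with exact Poisson intervals. Shares have Clopper-Pearson intervals at 95%. Both cover counting error only. Thinned cells were drawn to 800 UMIs. Cells are not replicates, so UMIs were summed per library for edgeR 4.0.16 (TMM, filterByExpr, Benjamini-Hochberg, threshold 0.05, R 4.3.3). The edgeR test was tried on counts simulated with a fixed spread for all genes, which was not taken from these libraries. SEs were taken from its F statistic. DESeq2 1.42.0 was an alternative. P-values measure only the spread between libraries, which may be technical. Genes named beside the pair were the 10 highest and 5 lowest by mean r and up to 4 abundant members of each list. The members, markers, lists, cell filters and naming limits were chosen with earlier results of these data known. Sequences came from GENCODE transcripts and RefSeq promoters, matching both genes to a transcript and Ccl3 to a promoter. A receptor gene and a sequence are not reported here.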

Additional observations from a re-analysis of the deposited data

How the results depend on the processing

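The direction of the pair between metastasis and naive depended on the cells summed and on 1 library. The log2 change of Ccl3 was -0.34 over all kept cells and -0.34 over all deposited barcodes, and that of Ccl4 was -0.40 and -0.40; leaving out 1 library at a time gave -0.43 to 0.75 for Ccl3 and -0.43 to 0.70 for Ccl4, below 0 only without metastasis 1. The other 9 alternatives for each gene kept the direction, and in none of the 12 did either gene pass the threshold (lowest adjusted p 0.506 for Ccl3 and 0.563 for Ccl4, edgeR). With the replicate number, which is also the sequencer, as a replicate block, the change was 0.19 for Ccl3 and 0.18 for Ccl4 with 0 genes called. Deviations of same-numbered libraries correlated at -0.13 over 5706 genes, and a crossed pairing, added after seeing the data, called 2 genes. Calls over all genes numbered 1 with DESeq2, 65 without the low-count filter, and 0 to 277 when 1 library was left out (277 without metastasis 2 and 19 without naive 2, the lone library taken to vary like the others); the cause was not tested. Between null and heterozygous, the log2 ratio of Ccl3 was -1.45 and that of Ccl4 -1.34 with a 25% mitochondrial limit, -1.44 and -1.14 without the 3 richest cells, while Ccl4 was -0.98 over all deposited barcodes and -1.04 in thinned cells; all 12 alternatives stayed below 0. The median share of cells with a UMI of either gene was 97.7% and 89.7% after thinning. Depth limits metastasis 2 most, with 489 Ccl3 UMIs in 73 cells.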
